A study of Mus musculus with 8 samples.

Results

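Processed pseudogenes are copies of mRNAs that were reverse transcribed and inserted back into the genome. The m6A peaks annotated to them were taken from the authors' peak lists by the gene class that the lists give, and numbered 865 of 35697 peaks over 4 lists. They lay in 353 of the 8733 genes with a peak, and all 353 were found by Ensembl identifier in the table of input counts. The material was spermatogenic cells from testes of C57BL/6 mice, 12 weeks old, either wild type (WT) or Alkbh5-/- (KO). In each genotype 2 cell fractions were profiled, PA and RO, which the series title identifies as pachytene spermatocytes and round spermatids. Each combination of genotype and fraction had 1 input and 1 m6A-immunoprecipitated library (MeRIP-seq, in which RNA fragments bound by an anti-m6A antibody are sequenced beside the starting RNA). There were thus no replicates. No test of a difference between genotypes or fractions was made, since the fractions are different cells and not replicates of each other. Intervals given below are 95% intervals. Those of shares cover counting error only. Those of medians reflect the spread over the genes or peaks, taken as independent of each other. No interval covers variation between animals or libraries. The labels do not say how many animals were pooled, whether both fractions came from the same animals, or how the Alkbh5 allele was made.

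N6-methyladenosine is placed on mRNA by a methyltransferase complex built around METTL3 and METTL14, and ALKBH5 is one of the enzymes that remove it. In male germ cells ALKBH5 is needed for normal spermatogenesis. A processed pseudogene usually lacks introns and its own promoter, its RNA is rarely translated, and its sequence resembles that of its source mRNA. Reads from a recent copy can therefore map to the source gene or to other copies. How such reads were counted is not given in the sources used here, so that values of single pseudogenes with close relatives are uncertain.

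The 4 input libraries held between 9921365 and 13147239 counts. The level of Alkbh5 itself was not analysed here, and the labels were thus not checked against the deleted gene. The fractions were only partly separated by their markers. The summed level of 6 named pachytene markers, in CPM (input counts per 1000000, scaled for library composition), was 2812 (WT) and 1739 (KO) in PA and 2605 and 1975 in RO. Sycp2 alone had 1777, 826, 1518 and 930 CPM, while Sycp1, Ldhc and Pgk2 were higher in WT RO than in WT PA, so that the lower WT sum in RO rested on Sycp2. The sum of 8 round spermatid markers was 261, 568, 497 and 1039 CPM in the same order. The sum was higher in RO than in PA within each genotype and higher in KO than in WT within each fraction, but Acrv1 and Acr were lower in KO in both fractions. Acrv1 had 54.7, 51.3, 136 and 77.6 CPM, and Prm2, which was higher in KO, had 80.7, 190, 106 and 341. Markers of somatic testis cells were present as well. Leydig cell markers (2 genes) summed to 136, 40.0, 41.5 and 16.7 CPM, Sertoli cell markers (4 genes) to between 172 and 318 CPM, peritubular and vessel markers (3 genes) to between 174 and 334 CPM, macrophage markers (2 genes) to between 3.07 and 24.8 CPM, and spermatogonium markers (3 genes) to between 23.5 and 60.4 CPM. The part of cell make-up in the results below was not tested, and in such bulk samples fewer cells of a type and less RNA per cell cannot be told apart.

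The lists held similar numbers of processed pseudogene peaks. The PA lists had 206 peaks in 173 genes (WT) and 235 peaks in 201 genes (KO), and the RO lists 219 in 180 genes (WT) and 205 in 179 genes (KO). As shares of all peaks these were 2.75% (2.40 to 3.14), 2.37% (2.09 to 2.68), 2.33% (2.04 to 2.65) and 2.32% (2.02 to 2.65). The KO share less the WT share was -0.380 percentage points (-0.864 to 0.0905) for PA and -0.00790 points (-0.445 to 0.432) for RO, and both intervals include 0. Long intergenic noncoding RNAs (lincRNAs) gave a share of like size in 3 lists and a higher one, 3.85%, in WT RO.

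A peak was typically a short stretch within a single exon. The median exonic width was 208 bp (WT) and 232 bp (KO) in PA and 206 bp and 232 bp in RO, with a range from 105 to 1288 bp over the lists. Between 203 and 231 peaks of a list formed 1 uninterrupted block. The widest peak of 3 lists lay in Gm5912, at 749 bp in WT PA, 1288 bp in KO PA (chr8:95577621-95578908 of mm10) and 1019 bp in KO RO. In WT RO it was the 1246 bp peak of Gm6327. The narrowest, of 105 bp, was in the X-linked Gm9059 in KO PA.

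The fold enrichment of immunoprecipitated over input and the false discovery rate are the authors' values for each peak and are used only within a list. The median fold of the members in the authors' deposited table was 10.2 (WT) and 12.8 (KO) in PA and 10.8 and 11.6 in RO. Placed among all peaks of the same list these medians were at the 43.3, 49.3, 34.2 and 48.8 percentile. Processed pseudogenes held fewer of the strongest peaks of the KO lists than protein-coding genes did. Of 235 members 11 (4.68%) were in the top 10% of folds of KO PA in the authors' deposited table, against 10.5% of protein-coding peaks (difference -5.83 points, -7.98 to -2.27), and 7 of 205 (3.41%) in KO RO (difference -7.08 points, -8.96 to -3.55). For the WT lists of PA and RO the differences were -3.03 points (-5.95 to 1.41) and -1.33 points (-4.54 to 3.27), and both intervals include 0. Against lincRNAs the difference was -0.197 points (-4.21 to 3.87) in KO PA and -3.02 points (-7.31 to 1.25) in KO RO, and these intervals include 0 as well. Peaks with a false discovery rate of 0.05 or above in the authors' deposited table made up 10.7% (WT) and 3.40% (KO) of members in PA and 23.7% and 3.41% in RO. In the same order the protein-coding share was 6.39%, 2.00%, 12.2% and 3.33%, and the difference had an interval above 0 in both WT lists (4.29 points, 0.712 to 9.28, in PA and 11.6 points, 6.39 to 17.7, in RO). The lincRNA shares were 11.2%, 5.28%, 20.9% and 5.15%, and each interval of that difference includes 0.

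The strongest peaks lay in a handful of pseudogenes. Ppp1r2-ps3, a copy of the gene for an inhibitory subunit of protein phosphatase 1, had the highest fold of all members in KO RO, 396, at chr19:30538988-30539345 on the minus strand. Its fold in the authors' deposited table was 257 in WT RO, and lower in PA, at 90.7 (WT) and 31.8 (KO). All 4 lists had the peak begin at the same coordinate. In WT PA the top member was Gm7451 with a fold of 194 (chr8:4641940-4642295), ahead of Gm12516 with 110 and Gm8703 with 92.8. In KO PA these were Gm11620 with 100 (chr11:105165757-105166055), Gm3555 with 91.7 and Gm5912 with 76.1. In WT RO Gm9731 had 270 (chr8:27296085-27296592) and Gm7444 had 248. In KO RO Gm18905 had 126 and AC134607.1 had 92.0.

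Among genes with a peak in all 4 lists, the highest mean percentile of fold belonged to Ppp1r2-ps3 at 94.6, followed by Gm3555 at 93.4, Gm18905 at 90.3 and Mospd4 at 90.2. Mark1-ps1 and Gm272 were both at 85.6, Gm5361 at 83.3 and AA414768 at 82.7. Mark1-ps1, named for a microtubule-affinity regulating kinase, had folds of 35.8 (WT) and 28.6 (KO) in PA and 80.7 and 35.2 in RO in the authors' deposited table. Its peak ran up to the same coordinate, 53949065 of chromosome 17, in every list.

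Most pseudogenes carried a single peak. Genes with 2 or more peaks made up 15.6% (WT) and 13.4% (KO) of the pseudogenes in PA and 16.1% and 11.7% in RO, against 35.0% to 37.3% of protein-coding genes with a peak. The difference was between -23.9 and -19.4 points over the lists, with every interval below 0. The lincRNA shares were 24.7% (WT) and 17.7% (KO) in PA and 20.4% and 16.7% in RO. Against lincRNAs the difference was -9.05 points (-17.9 to -0.261) in WT PA, and the intervals of the other lists include 0. Among pseudogenes with a matching pseudogene entry in RefSeq (assembly GRCm38.p6), the 45 with 2 or more peaks in a list had a median length of 1900 bp (1742 to 2602) and the other 224 a median of 1388 bp (1206 to 1551). Gm18337 had the most, with 5 (WT) and 4 (KO) peaks in PA and 5 and 1 in RO. Gm4808 had 2, 2, 3 and 3, Gm5361 had 2, 3, 2 and 3, and Gm7444 had 2, 2, 3 and 3 in the same order.

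RefSeq held 287 of the 353 symbols, and for 284 of them every peak overlapped the RefSeq gene of that name. RefSeq called 251 of these pseudogenes, 17 transcribed pseudogenes, 13 protein-coding genes and 2 long noncoding RNAs, and 1 a pseudogene of a noncoding RNA. In 99 of the 284 the first peak lay within the span of another protein-coding gene, on either strand. The library kit named in the labels does not mark strand, so that reads of overlapping genes on opposite strands cannot be told apart. Peaks were spread along the pseudogenes, with few centres in the last part at the 3′ end. Where position could be read (for 156 WT and 180 KO peaks of PA and 163 of each genotype of RO), the centre fell in the last of 5 equal parts of the pseudogene in 10.9%, 6.11%, 4.29% and 7.98% of peaks. The median centre was at 43.8%, 43.7%, 42.2% and 44.2% of the length from the 5′ end. The first of the 5 parts held 19.9%, 15.0%, 15.3% and 15.3% of peaks. In WT PA the intervals of the first part (14.4 to 26.8) and the last (6.92 to 16.8) overlap. Centres beyond the RefSeq span were set to its nearer end. A peak that lies wholly within the pseudogene cannot have its centre at the very end. No expected share and no share of another gene class was set beside these values.

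**Figure D1:**
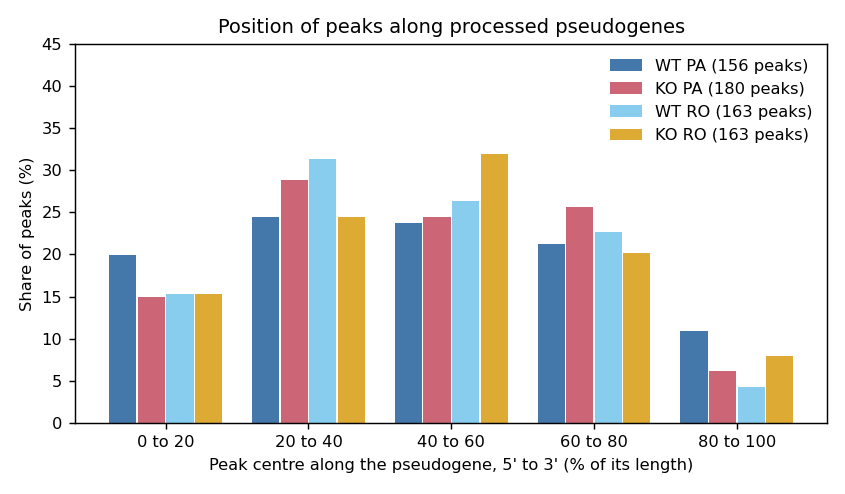
Share of processed pseudogene peaks (vertical axis, %) whose centre fell in each of 5 equal parts of the RefSeq pseudogene from 5′ to 3′ (horizontal axis), with 1 bar per list. The last part holds the fewest peaks in every list, between 4.29% and 10.9%.

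Few sequences under the peaks could be shown, since no genome of the build was used here. The RefSeq promoter windows reached into 2 member peaks, and 1 of them, the narrow KO PA peak of the X-linked Gm9059, was covered over 67 of its 105 bp because it lies just upstream of the start of the lncRNA gene Gm39527, on the other strand. The strand that the list gives the peak over that stretch, chrX:96966582-96966648 of GRCm38.p6, minus strand, is shown with GAC, the core around which m6A is usually found, in capitals.

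Gm9059 in KO PA: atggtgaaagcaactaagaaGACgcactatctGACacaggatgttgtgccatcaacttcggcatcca

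It held GAC 2 times on the strand of the peak and 0 times on the other. Of 32851 RefSeq windows, 55.2% held GAC in their first 67 bases, so that its presence does not set this stretch apart. The input counts of Gm9059 were 5 (WT) and 55 (KO) in PA and 15 and 54 in RO.

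Peaks in processed pseudogenes were less often found again in another list than peaks in protein-coding genes, and in 6 of 8 pairs of lists the interval of the difference lay below 0. Of the WT PA members 61.7% (54.9 to 68.0) overlapped a KO PA peak by 1 bp or more of exon on the same strand, against 81.8% of protein-coding peaks, a difference of -20.1 points (-27.0 to -13.7). Of the WT RO members 37.4% overlapped a KO RO peak against 58.7% (-21.2 points, -27.4 to -14.6), and of the KO RO members 42.4% overlapped a WT RO peak against 59.7% (-17.3 points, -23.9 to -10.3). Of the KO PA members 52.8% overlapped a WT PA peak against 57.2%, and that difference of -4.47 points had an interval that includes 0 (-10.9 to 1.90). The lists differ in length, which bears on each share.

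Between fractions, members of the KO lists were shared most. Of KO RO members 76.1% (69.8 to 81.4) overlapped a KO PA peak and 65.5% (59.2 to 71.3) the other way round. In WT the same shares were 42.0% (35.7 to 48.6) of WT RO members and 46.1% (39.4 to 52.9) of WT PA members. Protein-coding peaks showed the same order, with 82.4% and 70.7% in KO and 52.8% and 65.3% in WT. Compared with lincRNAs, the share of members found again had a lower interval for WT PA in WT RO (-11.5 points, -21.0 to -1.77) and a higher one for WT RO in WT PA (12.3 points, 4.24 to 20.2), and the other 6 pairs had intervals that include 0.

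**Figure D2:**
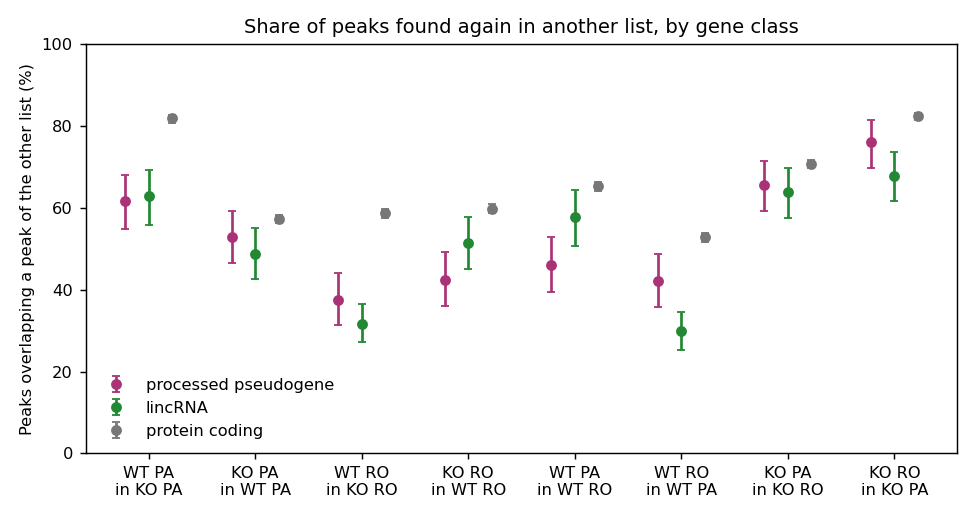
Share of the peaks of 1 list that overlap a peak of a second list (vertical axis, %) for 8 ordered pairs of lists (horizontal axis), for processed pseudogenes, lincRNAs and protein-coding genes, with Wilson 95% intervals. Processed pseudogenes lie below protein-coding genes in each pair, from 37.4% against 58.7% (WT RO in KO RO) to 52.8% against 57.2% (KO PA in WT PA).

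Within ranges of input level the gap to protein-coding genes was smaller in most pairs. Among genes with 10 to 100 CPM in the input of their own list, 74.3% of WT PA members against 80.2% of protein-coding peaks overlapped a KO PA peak (-5.95 points, -15.2 to 1.58), and 49 of 98 WT RO members against 56.4% of protein-coding peaks overlapped a KO RO peak (-6.39 points, -16.2 to 3.43). The difference was below 0 in 4 of the 8 pairs of lists and above 0 in the other 4, and every interval includes 0 in this range. Among genes with 1 to 10 CPM the difference was -9.93 points (-22.5 to 2.65) for WT PA in KO PA, -9.11 points (-18.5 to 2.28) for WT RO in KO RO and -5.30 points (-15.4 to 5.43) for KO PA in WT PA, and the intervals of all 8 pairs include 0. Against lincRNAs at 10 to 100 CPM the difference was 17.2 points (3.99 to 29.6) for KO PA in WT PA. It was 14.2 points (2.13 to 26.0) for WT RO in KO RO and 22.1 points (9.95 to 33.6) for WT RO in WT PA. For KO RO in KO PA it was 18.3 points (7.46 to 28.3). For WT PA in WT RO it was -13.9 points (-26.9 to -0.0674), and the remaining intervals include 0. At 1 to 10 CPM every interval against lincRNAs includes 0. CPM is not corrected for gene length, and the pseudogenes are shorter than most mRNAs. Members without a partner had lower folds, as did protein-coding peaks. In the authors' deposited table the median fold was 15.0 for WT RO members with an overlapping KO RO peak and 9.42 for the other 137, of which 51 had a false discovery rate of 0.05 or above. In the same pair of lists the medians were 21.5 and 12.1 for protein-coding peaks and 19.3 and 11.4 for lincRNAs.

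Merged over lists, the peaks formed 446 regions. Of these 233 (52.2%) were in 1 list only, 93 in 2, 55 in 3 and 65 (14.6%) in all 4. The most common pattern was WT RO alone with 100 regions, followed by all 4 lists, WT PA alone with 51, KO PA alone with 47, and both KO lists with neither WT list with 42. The reverse pattern, both WT lists and neither KO list, had 18. No region patterns of other gene classes were set beside these, so they are not shown to be particular to pseudogenes. Protein-coding peaks, too, were shared more between the KO lists, at 82.4% (KO RO in KO PA) and 70.7% (KO PA in KO RO). Between the WT lists the shares were 52.8% (WT RO in WT PA) and 65.3% (WT PA in WT RO). WT RO also had the largest share of members at or above the false discovery rate limit given above, 23.7%. By gene, 162 of the 353 (45.9%) had a peak in 1 list only and 72 (20.4%) in all 4. Of protein-coding genes with a peak these shares were 28.1% and 37.6%, and of lincRNA genes 46.4% and 15.3%.

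**Figure D3:**
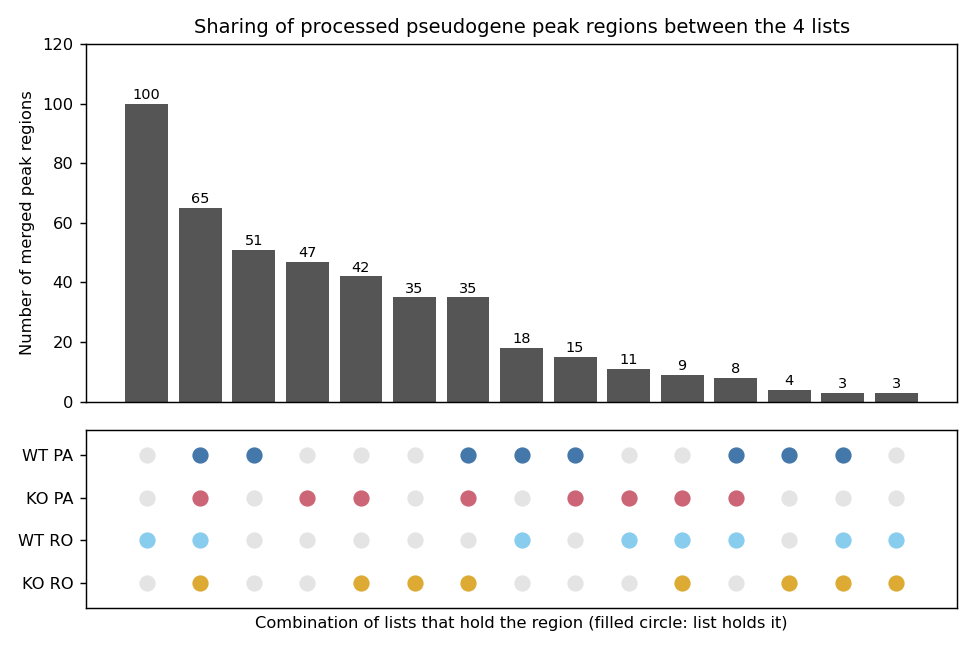
Number of merged processed pseudogene peak regions (bars, vertical axis) for each combination of lists, which the filled circles below a bar name. Regions in WT RO alone are the largest set at 100, and 65 regions are in all 4 lists. Regions of other gene classes are not shown.

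Several strong peaks had no overlapping peak in the other genotype of the same fraction. In WT PA Gm12516 (fold 110), Gm6981 (51.6) and Gm9165 (50.6) had no overlapping KO PA peak in the authors' deposited table. The input counts of Gm12516 were 28 (WT) and 0 (KO) in PA and 92 and 38 in RO. Thus the gene without a KO PA peak also had no KO PA input count, and its level was at least 8.61-fold lower there, taken against a limit of 3 counts per library. Gm9165, with 416, 346, 502 and 379 input counts, lacked a KO PA peak at nearly equal input. In KO PA Gm14239 (75.6), Gm18669 (53.4) and 4930529C04Rik (49.6) had no overlapping WT PA peak. Gm14239 had peaks in both KO lists and in neither WT list, while its counts were 423 (WT) and 233 (KO) in PA and 348 and 173 in RO, higher in both WT inputs. In WT RO the strongest without a KO RO partner were Gm9731 (270), Gm18783 (80.7) and Gm5699 (78.0), and in KO RO without a WT RO partner AC134607.1 (92.0), Gm36501 (62.0) and Gm12097 (41.9).

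A peak may lie on sequence that 2 annotated genes share. Between 2 and 5 members of a list overlapped a peak given to another gene on the same strand. These were Gm43213 with 4930594C11Rik in all 4 lists, AC134439.2 with Wdr41 and Gm43802 with Gbp7 in both KO lists, Gm8096 with Gm45751 in WT RO, and 2 Ensembl genes that both carry the symbol Gm12057 in KO PA.

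Input levels of the pseudogenes were low. The median of the 353 genes was 4.86 (WT) and 4.81 (KO) CPM in PA and 6.43 and 5.57 in RO, and together they took 0.524%, 0.466%, 0.651% and 0.553% of the counts. Between 25 and 33 of the genes had 0 counts in a library. A peak with almost no input read was seen more often than in protein-coding genes, and about as often as in lincRNAs in PA. Of genes with a peak in the list, 6.36% (WT) and 6.47% (KO) for PA and 11.1% and 8.94% for RO had at most 3 counts in the matching input, against 1.49% to 2.28% of protein-coding genes. The lincRNA shares were 6.16%, 8.33%, 7.30% and 4.84% in that order. Rps2-ps11, a copy of a small-subunit ribosomal protein gene, had a WT PA peak and 0 counts in each of the 4 inputs, and Crb1-ps had a WT PA peak with counts of 0, 0, 0 and 3. The fold of such a peak rests on almost no input.

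The genes with the most counts were Gm6721, Gm6729, Gm5697, AC174797.4 and Gm10297, on a scale not corrected for gene length. Gm6721 had 274 (WT) and 155 (KO) CPM in PA and 468 and 308 in RO, and Gm6729 had 261, 125, 385 and 226. Both were lower in KO within each fraction and higher in RO within each genotype. They lie in a group of 10 peak-bearing pseudogenes within chr10:85709592-86657113, the group with the highest summed level among 7 such groups (at least 4 members with no more than 1 Mb between neighbours). The group summed to 1088 (WT) and 530 (KO) CPM in PA and 1404 and 843 in RO, and took 18.5%, 12.4%, 20.6% and 16.4% of the counts of all members. All 10 of its genes had a lower input in KO than in WT in both fractions. Gm9466, also in it, had 677 (WT) and 101 (KO) counts in PA and 267 and 135 in RO, with the WT PA library far above the others. Because neighbouring copies may share reads, these 10 genes may not be independent measurements. A second group, of 14 genes on chr4:145641627-148068290, summed to 269, 169, 291 and 171 CPM, and 11 of its 14 genes were below WT in each fraction. The other 5 groups, of 4 or 5 genes each, summed to at most 53.1 CPM in a library and had no common direction. The groups on chromosomes 5, 6 and 7 were higher in KO in PA, at 20.1 against 17.7, 29.5 against 22.2 and 16.5 against 10.2 CPM.

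Against wild type, more of the pseudogenes were at least 2-fold lower than higher in KO input. The members were chosen by a peak in any list. Of the 353 genes, 65 entered by WT RO alone, 36 by WT PA alone, 35 by KO PA alone and 26 by KO RO alone. Because a peak call needs reads, the input ratios are not separate from that choice. In PA, of 307 members with at least 1 CPM in either library, 60 (19.5%) were at least 2-fold higher and 87 (28.3%) at least 2-fold lower in KO. Over all 24331 genes passing the same filter the shares were 23.8% and 19.9%. In RO, 48 of 316 (15.2%) were higher and 88 (27.8%) lower, against 23.0% and 19.0% of all genes. The median log2 ratio of KO over WT was -0.30 (-0.52 to -0.17) in PA and -0.33 (-0.50 to -0.15) in RO, while that of all genes was 0.04 in both. With genes at 0 counts in 1 library set at their bound the medians were the same. Of the members past 2-fold, 23 (PA) and 28 (RO) rested on a library with at most 3 counts. Scaled by total counts only, the median of all genes moved to 0.35 in PA and 0.22 in RO, the members' medians were -0.01 and -0.15, and their split turned to 77 higher and 65 lower in PA and 60 and 73 in RO. The members then still lay below the median of all genes. At 10 CPM or more in either library, 23 of 143 members were higher and 41 lower in PA, against 13.3% and 13.0% of all genes, and 13 of 154 were higher and 46 lower in RO, against 11.8% and 12.9%. LincRNA genes with a peak lay on the same side, at -0.19 in PA and -0.37 in RO, and protein-coding genes with a peak at -0.04 and -0.02. Unprocessed pseudogenes with a peak had medians above 0. These were 0.32 (-0.14 to 0.88) for 47 genes in PA and 0.09 (-0.26 to 0.44) for 49 in RO, and both intervals include 0.

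Both KO inputs were at least 2-fold below both WT inputs in 20 of 173 members with at least 10 CPM in a library (11.6%), against 4.19% of all genes, and at least 2-fold above both in 6 (3.47%), against 3.41%. Gm5697 had 3443 (WT) and 636 (KO) counts in PA and 2992 and 631 in RO, with both KO libraries low and little difference between fractions. It kept peaks in all 4 lists. Gm272 had 831, 274, 842 and 306 counts and also kept peaks in all 4 lists. Gm13146 had 241, 44, 307 and 37 counts, and Gm18783 had 893, 276, 987 and 369. Of the 20 genes, 4 lie on chromosome 13, which holds 24 of the 353 members, and 4 on chromosome 4, which holds 28. A grouping by chromosome was not tested, and neighbouring copies may share reads. Tdpx-ps1, outside these 20 because of its low level, had 46 counts in WT PA, 26 in WT RO and 0 in both KO libraries, which is at least 14.1-fold lower in PA and at least 8.25-fold lower in RO.

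The 6 genes higher in both KO inputs were Mdm4-ps, Gm4994, Gm8696, Ppp1r2-ps1, Gm12669 and Gm8681. Gm12669 had 54 (WT) and 460 (KO) counts in PA and 60 and 391 in RO, and its peaks were in the 2 WT lists and in neither KO list. Gm8681 had 7, 96, 21 and 118 counts, and its peaks were in both KO lists and in neither WT list. Gm8696 had 5, 143, 0 and 61 counts with a peak in KO PA alone. It was at least 21.4-fold higher in KO RO than in WT RO against the limit of 3 counts. Thus the peaks of Gm8681 and Gm8696 were in libraries of higher input, and those of Gm12669 in the libraries of lower input.

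**Figure D4:**
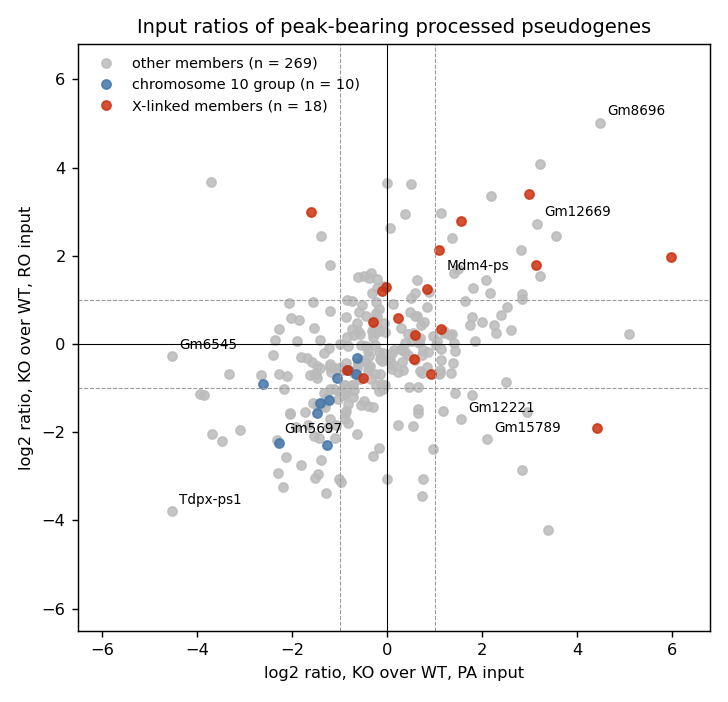
Log2 ratio of KO over WT input (log2 CPM, prior count 2) in PA (horizontal axis) and RO (vertical axis) for 297 peak-bearing processed pseudogenes with at least 1 CPM in both comparisons, 1 point per gene, with dashed lines at 2-fold. Of these, 129 lie below 0 in both fractions and 65 above 0 in both, all 10 genes of the chromosome 10 group lie below 0 in both, and the ratio of a gene at 0 counts in a library, such as Tdpx-ps1, depends on the prior count.

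The input ratio moved partly with where the peaks were found. Of genes with a WT PA peak but no KO PA peak, 20 of 44 (45.5%) were at least 2-fold lower in KO PA input and 8 (18.2%) higher. Of genes with a KO PA peak but no WT PA peak, 15 of 79 (19.0%) were lower and 24 (30.4%) higher. Among all genes the PA shares were 19.9% (lower) and 23.8% (higher), so that the 19.0% is close to the share of all genes. In RO, genes with a WT RO peak but no KO RO peak had 31 of 78 (39.7%) lower and 11 (14.1%) higher. Those with a KO RO peak but no WT RO peak had 23 of 86 (26.7%) lower and 15 (17.4%) higher. Among all genes the RO shares were 19.0% (lower) and 23.0% (higher). Genes with peaks in all 4 lists also had medians below 0, at -0.41 in PA (-0.73 to 0.22) and -0.52 in RO (-0.67 to -0.17). Genes with a KO peak but no WT peak had medians of 0.10 in PA (-0.27 to 0.63) and -0.25 in RO (-0.65 to 0.10). Genes with no peak in either list of the fraction had -0.22 in PA (-0.63 to 0.00) and 0.00 in RO (-0.26 to 0.38). A peak call needs reads, and its dependence on input level was not tested.

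Other named pseudogenes had genotype differences of unequal size in PA and RO, and the inequality was not tested. Gm6545 had 146 (WT) and 4 (KO) counts in PA and 26 and 20 in RO, so that WT PA stood apart. Zcchc9-ps, also 1 of the 20 genes lower in both KO inputs, had 116, 52, 174 and 18 counts, and its source gene Zcchc9, which encodes a zinc finger protein, 251, 120, 328 and 143. Phgdh-ps1, a copy of the gene for the first enzyme of serine synthesis, had 24, 144, 69 and 82 counts, with WT PA below the other libraries.

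Between fractions, the pseudogenes lay on the side of RO, as did other noncoding classes with a peak. In WT, 81 of 312 (26.0%) were at least 2-fold higher in RO, against 21.6% of all genes, and 45 (14.4%) lower, against 18.7%. The median log2 ratio of RO over PA was 0.29 (0.12 to 0.43), while that of all genes was 0.01. In KO, 66 of 311 (21.2%) were higher, against 17.5%, and 47 (15.1%) lower, against 15.2%, with a median of 0.18 (0.06 to 0.32). At 10 CPM or more, 30 of 150 members were higher and 12 lower in WT, against 11.5% and 9.64% of all genes, and 20 of 138 were higher and 10 lower in KO, against 5.21% and 5.64%. The median of lincRNA genes with a peak was 0.53 in WT and 0.26 in KO, and that of unprocessed pseudogenes 0.84 and 0.43. These comparisons use the same libraries as the genotype comparisons. Gm6089 had 141 (WT) and 183 (KO) counts in PA and 6 and 93 in RO, with the WT RO library far below the others. Gm5067 had 911, 642, 130 and 350 counts, again with WT RO lowest. Gm6560 had 139, 29, 111 and 201 counts, with KO PA lowest. Gm15229, on the X chromosome, had 21, 19, 56 and 133 counts and was higher in RO in both genotypes. Gm7556 had 21, 118, 133 and 69 counts, and Gm3527 had 58, 115, 50 and 29.

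X-linked members took a larger share of the KO lists than of the WT lists. This comparison was chosen after the values were seen and is a description. In PA the X chromosome held 2 of 206 WT peaks (0.971%) and 16 of 235 KO peaks (6.81%), and in RO 8 of 219 (3.65%) and 12 of 205 (5.85%). The KO share less the WT share was 5.84 points (2.25 to 9.86) for PA and 2.20 points (-1.99 to 6.67) for RO, and the second interval includes 0. For peaks of all other gene classes that difference was 0.278 points (-0.167 to 0.712) for PA and 1.0 points (0.588 to 1.43) for RO. The 24 X-linked pseudogenes summed to 943 (WT) and 1594 (KO) counts in PA and 1410 and 2318 in RO. In KO PA input 8 of 20 (40.0%) were at least 2-fold higher and 1 lower, and in RO 10 of 21 (47.6%) were higher and 2 lower. Over all genes 23.8% (PA) and 23.0% (RO) were at least 2-fold higher, and 19.9% and 19.0% at least 2-fold lower. The median log2 ratio of the X-linked members was 0.87 (-0.02 to 1.27) in PA and 0.62 (-0.33 to 1.97) in RO. Both intervals include 0. Their levels were low, with medians of 1.58 (WT) and 2.82 (KO) CPM in PA and 2.26 and 3.47 in RO. Of the 24 genes, 9 had peaks in KO PA alone, 4 in KO RO alone and 4 in both KO lists alone, against 4 in WT RO alone. Most thus entered the set through a KO peak. Because a peak call needs reads, their higher KO input is not separate support. Among 210 and 213 other X-linked genes with a peak, 31.9% in PA and 39.9% in RO were at least 2-fold higher. The summed round spermatid markers were higher in KO in both fractions too, and their part in this result was not tested.

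Single X-linked members varied. Gm4994 had 2 (WT) and 236 (KO) counts in PA and 38 and 147 in RO, and its peaks were in both KO lists and in neither WT list. In the authors' deposited table their folds were 18.6 in KO PA (chrX:131848336-131848636) and 17.6 in KO RO. Mdm4-ps, a copy of the gene for a regulator of p53, had 100, 199, 86 and 365 counts, while Mdm4 itself had 4847, 2486, 2865 and 2352. The pseudogene was thus higher in KO in both fractions and the source gene was not. Gm371 had 36, 61, 51 and 118 counts with peaks in both KO lists. AA414768 and Gm14681 were the only X-linked members with peaks in all 4 lists. Gm14681 had 424, 460, 525 and 749 counts, and the folds of its peak were 32.0, 70.2, 2.5 and 12.9 in the authors' deposited table.

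The names of 34 pseudogenes carry the symbol of a source gene, 29 symbols in all. For 16 of the 34 (47.1%, 31.5 to 63.3) the named source gene had a peak in some list, and for 12 in the same list as the pseudogene. Of the 16, 5 are copies of the same gene, Ppp1r2, and RefSeq holds the source symbol for 28 of the 34. The interval takes the 34 copies as independent, and no share over all genes is given to set the 47.1% against. Tpt1-ps3, a copy of the translationally controlled tumour protein gene, had a peak in WT PA alone. Tpt1 had 1 peak there, but also 1 in KO PA and 2 in WT RO. Tubb4b-ps1, a beta-tubulin copy, had a peak in WT RO alone. Tubb4b had 1 peak there, but also 2 in KO PA and 1 in KO RO. The counts of Tubb4b-ps1 were 6 (WT) and 51 (KO) in PA and 49 and 105 in RO, while Tubb4b had 490, 538, 551 and 878. Ldha-ps2, a copy of the lactate dehydrogenase A gene, had peaks in WT PA, KO PA and KO RO, and no peak was listed for Ldha. Among copies of ribosomal protein genes, Rpl18-ps1, Rps2-ps5 and Rps2-ps11 had at most 3 counts in any library, and Rpl31-ps6 had 7, 8, 25 and 11 counts with peaks in both RO lists.

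The largest named family was that of Ppp1r2, with 5 copies on chromosomes 6, 9, 17 and 19. Ppp1r2 encodes inhibitor 2 of protein phosphatase 1, and the source gene had 43.2 (WT) and 81.8 (KO) CPM in PA and 47.0 and 84.3 in RO, with a peak in each list but KO PA. Of the copies, Ppp1r2-ps1, Ppp1r2-ps2 and Ppp1r2-ps3 had a peak in all 4 lists, Ppp1r2-ps4 in 3, and Ppp1r2-ps6 in both KO lists alone. Ppp1r2-ps1 had 4.60 (WT) and 20.1 (KO) CPM in PA and 7.64 and 21.3 in RO, so that both KO libraries were above both WT libraries. Ppp1r2-ps6 had 2.90, 7.77, 1.30 and 7.67 CPM and showed the same order. Ppp1r2-ps2 had 2.64, 13.2, 3.47 and 4.75 CPM, in the same order of genotypes, but with KO RO close to WT RO and KO PA far above the other libraries. Ppp1r2-ps3 had 9.97, 16.7, 16.3 and 10.3 CPM, and Ppp1r2-ps4 had 8.69, 5.64, 16.2 and 12.1 CPM, and for neither did the genotypes separate. The folds did not follow the levels. In the authors' deposited table Ppp1r2-ps1 had folds of 52.2 (WT) and 8.48 (KO) in PA and 152 and 22.6 in RO, higher in the WT lists, where its input was lower. Since a fold is divided by the input of its own library, and since reads of copies and source may be shared, these values are not measures of the methylated fraction.

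**Figure D5:**
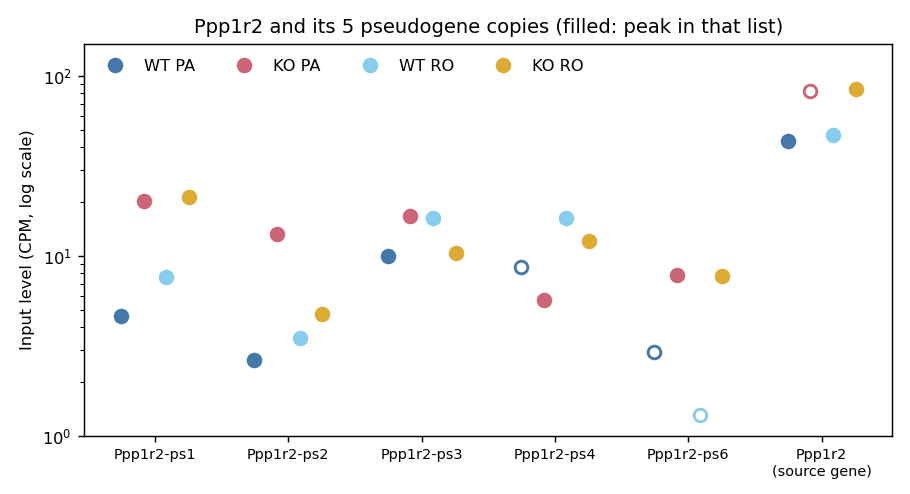
Input level (CPM, logarithmic vertical axis) of Ppp1r2 and its 5 processed pseudogene copies in the 4 libraries, 1 point per library, filled where the matching list holds a peak of that gene. Ppp1r2-ps1, Ppp1r2-ps2, Ppp1r2-ps6 and Ppp1r2 are higher in both KO libraries than in both WT libraries, and the copies Ppp1r2-ps3 and Ppp1r2-ps4 are not.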

How the data were processed

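Fragmented RNA (100 to 200 nt, per the labels' protocols) was sequenced before and after m6A immunoprecipitation, for PA and RO cells of either genotype. The authors deposited whole-number gene counts of the 4 input libraries, not normalized, and 4 peak lists. For a peak, per the file headers, they give a p-value, the log10 of it and of the false discovery rate, and a fold enrichment (a ratio of immunoprecipitated over input). The submitters' processing notes name mm10, cutadapt 2.5, HISAT2 2.1.0 and HOMER 4.10.4 without roles. The peak caller, counter, and handling of strand, duplicates and multi-mapped reads are not given in the sources used here. Each list was assigned to its group by the genotype and fraction in its name.

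Members were rows of class processed_pseudogene. Members, gene lists and rules were chosen with earlier results of these data known. Coordinates are 1-based. Peaks were compared by exon blocks on the same strand (at least 1 bp; checked against bedtools 2.31.1). Regions joined overlapping members over lists. Counts were scaled with TMM factors (0.892, 1.09, 0.953 and 1.08 for WT PA, KO PA, WT RO and KO RO; edgeR 4.0.16 in R 4.3.3) to log2 CPM with a prior count of 2. Genes with at least 1 CPM in either library were compared, and ratios past 2-fold (1 on the log2 scale) were counted. With 1 library per group no test was run and no p-value is given. Intervals are Wilson (shares), Newcombe (differences of shares) and order-statistic (medians). A library at 0 counts was set to 3 counts for a bound. The scaling and calls were checked on simulated counts with known changes. These changes exceeded 2-fold and were placed in genes well above the median level of the members, and the counts varied by sampling alone. The check therefore does not cover calls at low levels or variation between animals.

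Named genes were those with the 3 highest folds per list, overall and among peaks without a partner in the other genotype, the 8 with the best mean fold percentile in all 4 lists, the 5 with the highest mean CPM, the most extreme ratios per comparison (at least 10 CPM in a library and over 3 counts in both), genes with 3 or more peaks, copies named for a source gene, and the widest and narrowest peaks. X-linked genes, genes apart in both fractions and the Ppp1r2 source were added after their values were seen. Alternatives used other filters on peaks, definitions of overlap, DESeq2 1.42.0 size factors, total counts, a prior count of 0.5, and 10 CPM or no filter. Other software was pandas 2.3.3, scipy 1.17.1, numpy 2.4.6 and, for plots, matplotlib 3.10.9 (Python 3.11.15).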

Additional observations from a re-analysis of the deposited data

Results flagged for a closer look

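Gm12221 and Gm15789 had genotype ratios of opposite sign in the fractions, both past 2-fold. The log2 ratio of KO over WT for Gm12221 was 1.55 in PA and -1.70 in RO, from 12 (WT) and 36 (KO) counts in PA and 138 and 39 in RO, with a peak in WT RO alone. For Gm15789 it was 2.09 in PA and -2.15 in RO, from 27, 112, 138 and 28 counts, with a peak in KO RO alone. With 1 library per group the difference between fractions was not tested. Among genes with at least 10 CPM in a library and over 3 counts in each, 3 of 171 members (1.75%) and 125 of 13568 genes overall (0.921%) were of this kind.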

How the results depend on the processing

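Of 137 alternatives over 37 results, 104 stayed within the interval of the main value (for counts, within 1.5 times) and 33 moved. None reversed a direction whose interval excluded 0. Counts of genes have no such interval. Scaled by total counts only, the split of members in PA turned from 60 higher and 87 lower in KO to 77 higher and 65 lower. No paired analysis was possible because each combination of genotype and fraction has 1 library and the fractions are different cells, not replicates. For the same reason no replicate could be left out. Counting genes in place of peaks, the member share was 3.67% (WT) and 3.30% (KO) in PA and 3.10% and 3.21% in RO. With peaks at a false discovery rate under 0.05 alone the median width in WT RO was 237 bp, and 47.3% of WT RO members overlapped a KO RO peak and 52.1% a WT PA peak. With a reciprocal overlap of 50% the shares found again were 46.6% (WT PA in KO PA), 40.9% (KO PA in WT PA), 28.3% (WT RO in KO RO), 30.2% (KO RO in WT RO), 29.6% (WT PA in WT RO), 27.9% (WT RO in WT PA), 57.9% (KO PA in KO RO) and 66.3% (KO RO in KO PA). By a peak of the same gene they were 71.8%, 62.1%, 50.7%, 51.2%, 61.2%, 58.4% and 72.8% for the first 7 pairs in that order. With at least 10 CPM fewer genes were tested, and the counts of members 2-fold higher and lower were 23 and 41 (KO over WT, PA), 13 and 46 (KO over WT, RO), 30 and 12 (RO over PA, WT) and 20 and 10 (RO over PA, KO). The median in PA was then -0.55. Scaled by total counts only, the median was -0.01 in PA and -0.15 in RO, as the median of all genes moved too. The alternatives without the genes of the chromosome groups, and those on the X share, were chosen after seeing the data and moved no value beyond these limits. Depth limits the members at 3 counts or fewer, whose ratios and folds rest on few reads.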
